A study of Rattus norvegicus with 12 samples.

Results

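Neonatal rat cardiac fibroblasts that received siRNA against Yap were compared with fibroblasts that received universal negative control siRNA, 3 libraries on each side. The unit was FPKM, fragments scaled for transcript length and for the total of mapped fragments. Every gene whose mean over these 6 libraries reached 0.5 FPKM was taken, which gave 11036 of the 14636 genes in the deposited table. Just at that limit the lowest mean inside was 0.5 FPKM and the highest outside was 0.498 FPKM, and 3600 genes fell under it. Cells came from the hearts of Sprague Dawley rats aged 2 days and were separated on a Percoll gradient. They were grown in DMEM with 15% fetal bovine serum, penicillin and streptomycin, transfected after 16 h with MISSION transfection reagent (Sigma) and collected in Trizol 48 h later. The Yap group received 2 siRNAs, each at 25 nM, so the effect of each siRNA cannot be told apart from that of the other. Cardiomyocytes from the same preparation scheme, with the same siRNAs, made up the other 6 libraries of the series; they entered the same fit, where they share the estimate of the spread, and serve as the reference for differences between the cell types.

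YAP, encoded by Yap1, is a transcriptional coactivator that the Hippo kinase cascade holds in the cytoplasm. When it reaches the nucleus it acts through TEAD transcription factors on genes for growth, adhesion and the actin cytoskeleton, and stiff substrates and spread cell shapes are known to favour that state. Cardiac fibroblasts make the collagen-rich matrix of the heart. On activation they take up smooth muscle actin and become contractile myofibroblasts.

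Labels and contents of the libraries were checked first. Yap1 stood at 35.4, 37.4 and 33.5 FPKM in the 3 control libraries and at 4.45, 3.88 and 4.49 FPKM in the 3 Yap siRNA libraries, so the groups were far apart and 12.1% of the control level remained (log2 fold change -2.79 ± 0.10, adjusted p = 5.83e-11). Fibroblast markers were abundant in all 6 libraries: the type I and type III collagen genes Col1a1, Col1a2 and Col3a1 had control means of 6939, 4347 and 4029 FPKM and were among the 10 most abundant genes. The summed level of 20 fibroblast markers was 20458.6 to 21191.7 FPKM in control and 20964.0 to 21117.5 FPKM in Yap siRNA libraries. The summed level of 23 cardiomyocyte markers was 3.0% of that in control cardiomyocytes, although Tnnt2, cardiac troponin T, still reached 519, 519 and 542 FPKM in the control fibroblast libraries. FPKM totals were 563193.5 to 590420.7 per fibroblast library, and no read counts are given, so the depth is unknown. Spearman correlations across genes were 0.9910 to 0.9919 within a group and 0.9821 to 0.9845 between groups. Groups separated along a first principal component with 70.8% of the variance, and a second had 9.6%.

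Values after a gene are log2 fold changes of Yap siRNA over control on the log2(FPKM + 1) scale, with limma's standard error after the sign ±, and adjusted p-values are limma's after Benjamini-Hochberg adjustment over the 11036 genes. "Rose" and "fell" are used where that p was under 0.05. The gene lists were chosen with earlier results of these data known, so their counts and medians are descriptions, to be read against the 21.3% of all tested genes called higher and the 10.9% called lower. No label tells if libraries within a group were separate animals or cultures. The p-values therefore rest on the spread among these libraries alone, which may be technical. An exact permutation test of 3 libraries against 3 cannot give a p under 0.1. Of the 3546 called genes, 2142 kept their call and sign in all 22 alternative settings. In bulk RNA, fewer cells of a type and less RNA per cell cannot be told apart.

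The response was broad and mostly small. Of the 11036 genes tested with limma, 3546 were called (32.1%), 2347 higher (21.3%) and 1199 lower (10.9%). Only 267 called genes changed by at least 1 on the log2 scale, 235 of them upward and 32 downward. The split of directions depended on scaling: 66.2% of the called genes were higher as deposited, 54.9% under median-of-ratios scaling (1945 higher, 1601 lower) and 45.9% under quantile normalization (1681 higher, 1982 lower). The median over all genes was 0.0657 as deposited, 0.0193 and -0.0265 under those scalings. Among the largest rises were those of Pla2g2a, Cxcl6, Enpp2, C3, Slpi and Chi3l1. Those with the largest falls besides Yap1 included the Notch genes Heyl and Notch3, the TGF-beta ligands Tgfb2 and Tgfb3, the interleukin 33 receptor gene Il1rl1 and the cysteine synthesis gene Cth.

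**Figure D1:**
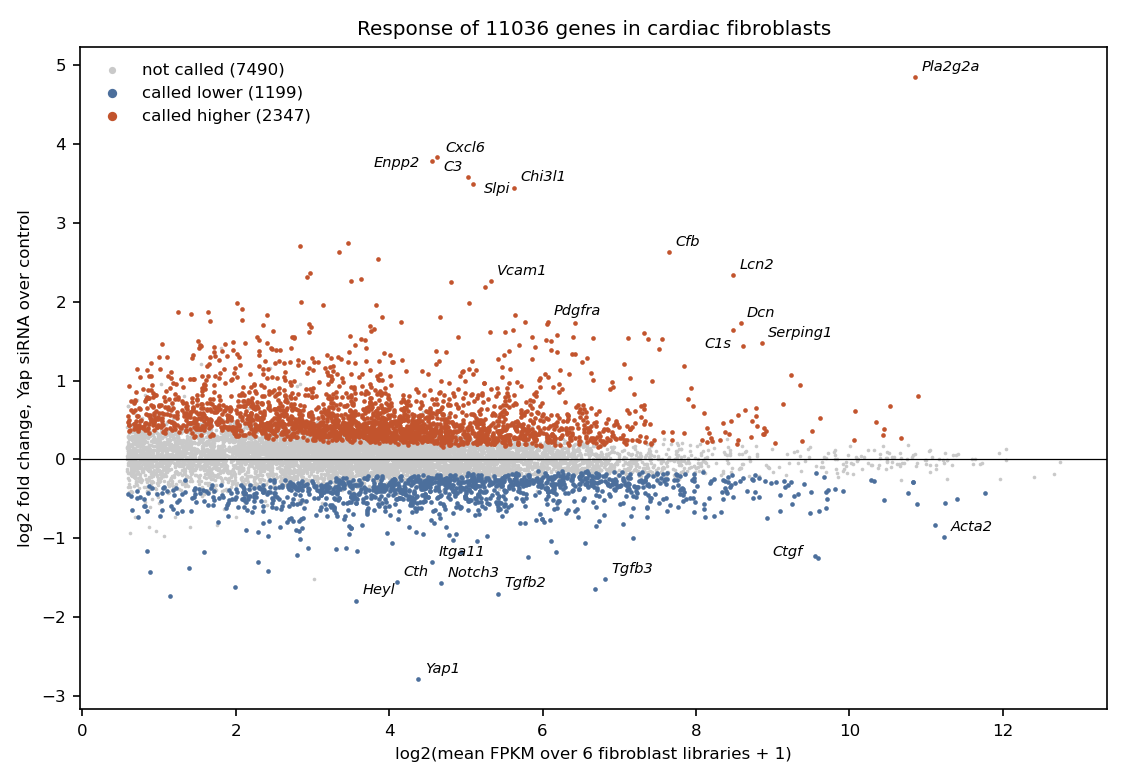
Each point is 1 of the 11036 genes, placed by the log2 of its mean FPKM over the 6 fibroblast libraries plus 1 (horizontal) and by its log2 fold change, Yap siRNA over control (vertical). The 2347 genes called higher are orange, the 1199 called lower are blue and the others are grey; Pla2g2a lies highest at 4.85 and Yap1 lowest at -2.79.

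The other tested genes of the YAP and TEAD complex were not called in the fit of all 4 groups. The paralog gene Wwtr1, which encodes TAZ, stood at 23.6, 25.9 and 21.97 FPKM in control and 21.2, 19.3 and 23.8 FPKM in Yap siRNA libraries, and the groups overlapped (-0.15 ± 0.09, adjusted p = 0.202). Tead1, Tead2 and Tead3, the genes of the DNA-binding partners, had log2 fold changes of -0.23, -0.20 and -0.03, with adjusted p = 0.269, 0.0881 and 0.794. Tead1 was called lower in a fit of the fibroblast groups alone, and Tead2 with quantile normalization, with median-of-ratios scaling and without Yap siRNA library 2. Of 24 tested target genes of YAP and TEAD, 10 fell and 4 rose, beside 10.9% and 21.3% of all genes, with a median of -0.33 against 0.0657 for all genes. Among secreted targets, 4 of 9 fell and Igfbp3 rose; among cytoskeletal and adhesion targets, 6 of 15 fell and 3 rose.

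Ctgf, a matricellular growth regulator and a common readout of YAP activity, went from 1088, 1039 and 1011 FPKM in control to 436, 453 and 449 FPKM in Yap siRNA libraries. The groups were wide apart (-1.23 ± 0.09, adjusted p = 1.34e-07). The related Cyr61 went from 369, 416 and 387 to 227, 266 and 246 FPKM (-0.66). Ankrd1, a muscle ankyrin-repeat protein of the nucleus and sarcomere, fell from 197, 182 and 194 to 86.7, 104 and 96.8 FPKM (-0.99 ± 0.08, adjusted p = 3.55e-07). The LIM-domain gene Ajuba (-0.95), Ddah1 (-0.69), the Hippo kinase gene Lats2 (-0.56), the survivin gene Birc5 (-0.54), Crim1 (-0.47) and the kinase gene Nuak2 (-0.46) fell too, and Tgfb2, given below, was the tenth. Several other targets did not move past the test. Thbs1, thrombospondin 1, stood at 448, 443 and 403 FPKM against 477, 412 and 474 FPKM (0.07 ± 0.09, adjusted p = 0.587), and Amotl2, Axl, F3, Edn1 and Gdf15 had values of -0.17, 0.01, -0.33, -0.32 and -0.39. Igfbp3, which binds insulin-like growth factors, moved the other way, from 353, 412 and 401 to 818, 825 and 797 FPKM (1.07 ± 0.15, adjusted p = 1.03e-04). Nt5e (0.45) and Tns3 (0.27) rose as well, and Asap1 (0.25, adjusted p = 0.0493) lost its call in 14 of 22 alternatives. Without control library 2 or 3, or without Yap siRNA library 1, 2 of the targets rose in place of 4.

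The Ctgf promoter is shown because it held the most copies of the TEAD letters among the matched target promoters. Here and below the stretch runs from 250 bases before the annotated start to the base before it, 5′ to 3′ along the gene, from RefSeq on GRCr8, a newer build than the rn6 of the expression table; capitals mark the motif. Ctgf lies at chr1:22624615-22624864, minus strand, and its capitals mark 3 copies of GGAATG.
Ctgf promoter: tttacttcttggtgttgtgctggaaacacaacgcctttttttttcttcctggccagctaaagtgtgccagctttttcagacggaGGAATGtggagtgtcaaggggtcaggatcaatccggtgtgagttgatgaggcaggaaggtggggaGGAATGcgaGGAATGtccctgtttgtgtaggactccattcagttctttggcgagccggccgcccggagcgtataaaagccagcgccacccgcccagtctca
GGAATG, read on both strands within 250 bases before to 50 bases after the start, stood in 7 of 20 matched target promoters (35.0%), in 11.2% of the promoters of tested genes and in 13.9% of all 27457 promoters. Among targets that fell, 4 of 8 held it, namely Ctgf, Cyr61, Ajuba and Nuak2; Thbs1, Amotl2 and Ptpn14 held it and did not pass the test. A match is a description of letters and not of binding.

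**Figure D2:**
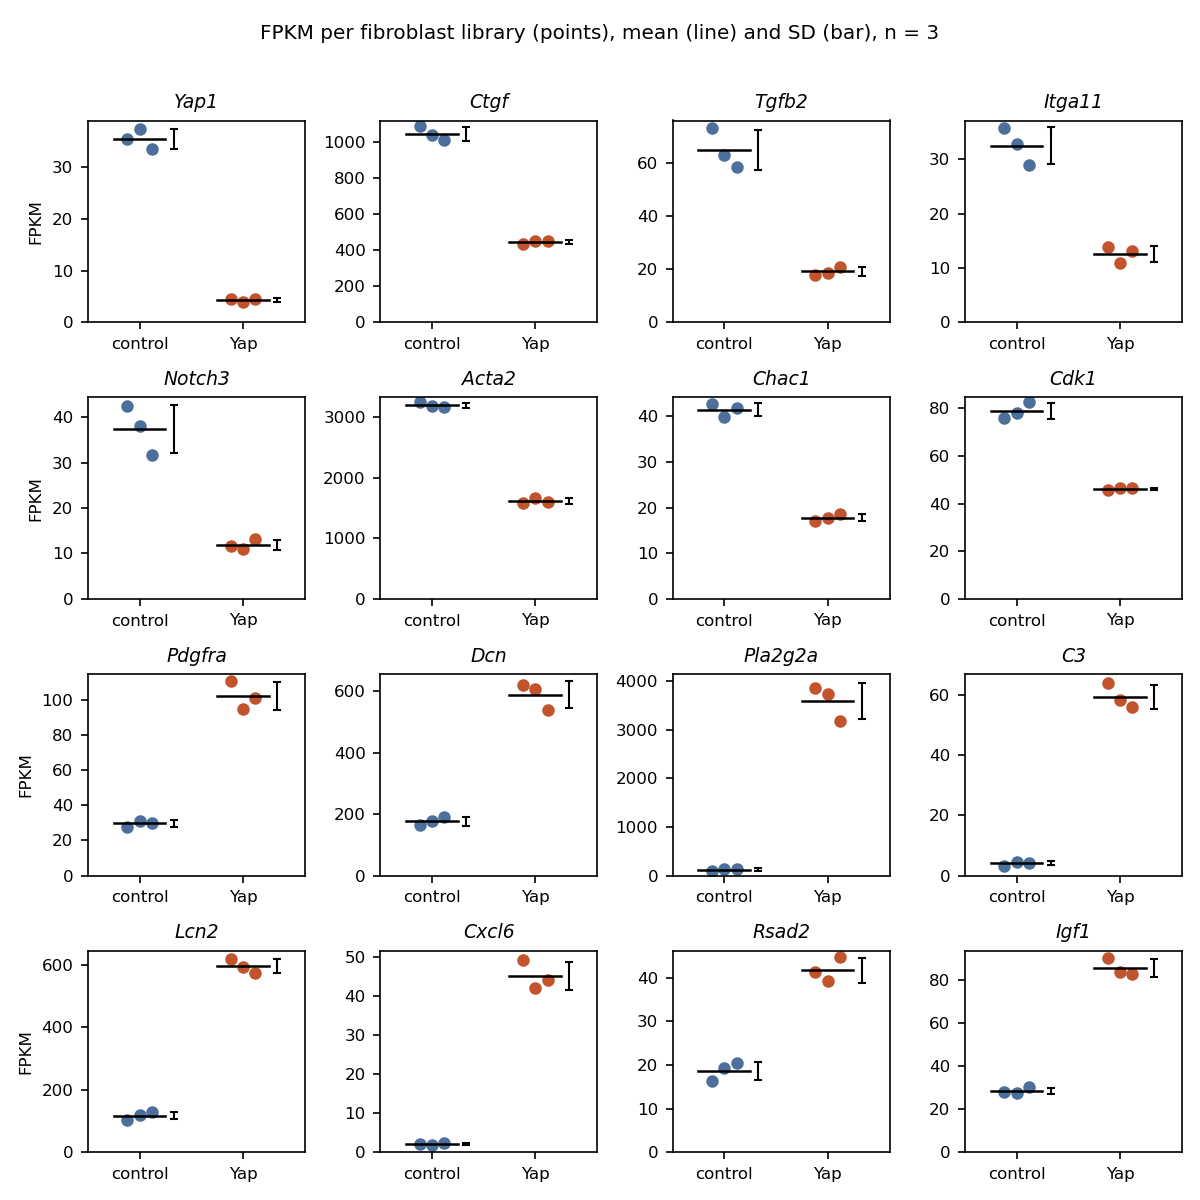
FPKM of 16 genes (vertical axes, each from 0) in the 3 control and 3 Yap siRNA fibroblast libraries; points are libraries, lines are means and bars are SD, n = 3. In each panel the groups do not overlap, as in 50% of all tested genes. Yap1, Ctgf, Tgfb2, Itga11, Notch3, Acta2, Chac1 and Cdk1 are lower after Yap siRNA, and the other 8 are higher.

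TGF-beta is known to drive fibroblasts toward the contractile, matrix-producing state. The ligand genes Tgfb2 and Tgfb3 were among the genes that fell most. Of 10 ligands and latent binders, 6 fell and 2 rose. Tgfb2 stood at 73.2, 62.8 and 58.4 FPKM in control libraries and 17.8, 18.6 and 20.97 FPKM in Yap siRNA libraries (-1.70 ± 0.09, adjusted p = 6.26e-09). Tgfb3 stood at 177, 167 and 153 FPKM against 56.8, 55.9 and 58.8 FPKM (-1.52 ± 0.10, adjusted p = 3.25e-08), so 29.6% of the control level of Tgfb2 and 34.5% of that of Tgfb3 remained. Inhbb, an activin subunit, rose from 3.67, 4.66 and 3.81 to 11.7, 9.60 and 11.2 FPKM (1.23), and Ltbp3, which stores latent ligand in matrix, rose by less (0.43). The count of fallen ligands and binders was 3 without control library 1 or without Yap siRNA library 1. Among 12 receptors and Smads, 5 rose and 4 fell: the receptor genes Tgfbr2 (0.73), Tgfbr3 (1.09) and Acvrl1 (0.77) rose, while Smad2 (-0.32) and the ubiquitin ligase gene Smurf1 (-0.42) fell. Without control library 1 only 2 of them fell, and without Yap siRNA library 3 only 3 rose. Of 8 target and antagonist genes 3 rose and 3 fell, Fst, the activin antagonist follistatin, rising by 0.76 and Pmepa1 standing at -0.39.

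Tnc, the stress-induced matrix protein tenascin C, went from 137, 126 and 116 to 60.8, 55.4 and 63.8 FPKM (-1.06). The receptor of interleukin 33, Il1rl1, fell from 170.3, 144 and 151 to 48.6, 45.02 and 52.3 FPKM (-1.65 ± 0.11, adjusted p = 6.40e-08), while its ligand Il33 rose from 3.02, 2.76 and 2.94 to 19.7, 17.4 and 16.2 FPKM (2.26 ± 0.18, adjusted p = 3.13e-07). The groups did not overlap for either gene, as for 50% of all tested genes.

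Notch3 is a receptor of mural cells, and Heyl is a transcriptional repressor that Notch signalling switches on. Notch3 stood at 42.4, 38.05 and 31.8 FPKM in control and 11.6, 10.98 and 13.1 FPKM in Yap siRNA libraries (-1.57 ± 0.15, adjusted p = 2.28e-06). Heyl stood at 18.8, 18.1 and 15.5 FPKM against 4.31, 4.34 and 4.29 FPKM (-1.79 ± 0.11, adjusted p = 1.58e-08). The other mural markers split. Of 9 tested pericyte markers, Notch3, Mcam (-1.04) and Pdgfrb (-0.50) fell, and Kcnj8 (0.98), Abcc9 (0.59) and Des (0.66) rose. Cspg4 (-0.21, adjusted p = 0.252), Rgs5 (0.42, adjusted p = 0.284) and Anpep (0.22, adjusted p = 0.0629) did not pass. The sum over 10 pericyte markers was 406.1 to 450.8 FPKM in control and 319.1 to 332.1 FPKM in Yap siRNA libraries. Notch3 is itself in this sum, so the sum is not a separate measure beside the fall of Notch3. The part of pericytes in the falls of Notch3 and Heyl was not tested.

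Most smooth muscle contractile genes fell after Yap siRNA. Of 22 smooth muscle contractile genes, 14 fell and 6 rose (median -0.36). Smooth muscle actin, Acta2, the hallmark of myofibroblasts, stood at 3248, 3182 and 3176 FPKM in control and 1581, 1667 and 1598 FPKM in Yap siRNA libraries. That left 50.4% of its control level (-0.99 ± 0.07, adjusted p = 6.81e-08). Tagln, the actin-binding protein SM22, went from 2967, 2853 and 2729 to 1569, 1672 and 1569.6 FPKM (-0.83). The light chain gene Myl9 (-0.72), tropomyosin 1 (Tpm1, -0.69), calponin 1 (Cnn1, -0.59) and Pdlim7 (-0.58) fell as well. Against the group, the intermediate filament gene Des (0.66), Synpo2 (0.66), the smooth muscle myosin gene Myh11 (0.43), Pdlim3 (0.37) and Hspb1 (0.29) rose, and Mylk, myosin light chain kinase, stood at 0.26 with adjusted p = 0.0489, a call lost in 15 of 22 alternatives. Skeletal actin, Acta1, was low and fell from 4.84, 7.17 and 5.78 to 1.25, 2.64 and 1.64 FPKM (-1.30).

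Among 24 genes of the actin cytoskeleton, many of them targets of the serum response factor SRF, 17 fell and 0 rose (median -0.29). Vinculin, Vcl, which links integrins to actin, went from 179.6, 166 and 157 to 88.05, 95.9 and 99.5 FPKM (-0.82 ± 0.07, adjusted p = 7.07e-07). The formin gene Diaph3 (-0.83), the crosslinkers Actn4 (-0.73) and Actn1 (-0.60), filamin A (Flna, -0.49) and zyxin (Zyx, -0.35) fell too. Under quantile normalization the counts were 16 lower and 1 higher. Of 11 integrin genes, 4 fell and 2 rose. Itga11, a collagen-binding integrin of fibroblasts, went from 35.7, 32.9 and 28.99 to 13.8, 10.9 and 13.1 FPKM (-1.31 ± 0.13, adjusted p = 2.07e-06). The fibronectin-binding subunit gene Itga4 fell (-1.16), as did the laminin-binding subunit gene Itga6 (-1.12). Itgb1, the shared beta subunit, was far more abundant and went from 970.5, 936 and 949 to 586, 593 and 635 FPKM (-0.65). Itgb8 (1.32) and Itgb3 (0.42) rose. Of 12 linkers and kinases of focal adhesions 5 fell, led by Lims2 (-0.87) and Bcar1 (-0.69), and Tns3 rose; without control library 2 or without Yap siRNA library 3 the falls numbered 3.

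Srf itself, chosen after its values were seen, went from 27.9, 29.6 and 25.7 to 18.9, 19.5 and 20.04 FPKM (-0.49). Its promoter is shown because it was the only one of the matched contractile and actin promoters with more than 1 CArG box, the motif that SRF binds. The stretch lies at chr9:21923826-21924075, plus strand, and capitals mark 2 CArG boxes.
Srf promoter: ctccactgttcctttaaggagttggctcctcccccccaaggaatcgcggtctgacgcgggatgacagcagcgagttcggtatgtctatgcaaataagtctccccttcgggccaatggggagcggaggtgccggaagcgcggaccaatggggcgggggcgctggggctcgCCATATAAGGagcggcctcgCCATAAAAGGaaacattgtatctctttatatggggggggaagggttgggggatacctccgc
Only the strict letters CCWWWWWWGG, with W for A or T, were counted as a CArG box. A promoter without a match may still hold a looser form. A CArG box stood in 3 of 17 matched smooth muscle promoters (17.6%) and 3 of 19 matched actin promoters (15.8%). It stood in 1.3% of the promoters of tested genes and 1.6% of all promoters. The smooth muscle genes with a box were Fhl1, Fhl2 and Srf, all called lower, and the actin genes were Actg1, Rnd3 and Lima1, of which Lima1 was not called.

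Genes of S phase and mitosis were lower. Of 37 S phase genes, 29 fell and 0 rose (median -0.39). Of 48 genes of G2 and M phase, 39 fell and 0 rose (median -0.40). Cdk1, the kinase that starts mitosis, went from 75.9, 77.99 and 82.9 FPKM in control to 45.7, 46.6 and 46.4 FPKM in Yap siRNA libraries (-0.76 ± 0.06, adjusted p = 3.54e-07). Ccna2 (-0.62) and Ccnb1 (-0.60), the cyclins of S phase and mitosis, and Plk1 (-0.60), Prc1 (-0.56) and Cdca8 (-0.62), which act in spindle and cytokinesis, fell together. In S phase, the ribonucleotide reductase genes Rrm1 (-0.45) and Rrm2 (-0.63), thymidine kinase (Tk1, -0.61) and the methylation maintenance gene Uhrf1 (-0.64) fell. Mcm5, a subunit of the replicative helicase, went from 20.2, 21.7 and 19.2 to 12.3, 12.8 and 12.7 FPKM (-0.65 ± 0.10, adjusted p = 1.71e-04). When any 1 library was left out, falls numbered 25 to 30 in S phase and 29 to 42 in G2 and M phase.

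Of 14 G1 cyclin and kinase genes, 7 fell and 0 rose, among them Ccnd2 (-0.57), Ccnd1 (-0.27), Cdk4 (-0.33), E2f1 (-0.44) and Myc (-0.33). Without control library 2, falls over these and 7 inhibitor genes numbered 5 in place of 9. The cell cycle inhibitor Cdkn1c rose from 2.91, 4.62 and 3.87 to 7.52, 7.05 and 7.26 FPKM (0.80) and Cdkn1b rose (0.42), while 2 of the 7 inhibitor genes, Cdkn2a (-0.54) among them, fell. Among 20 p53 target genes 2 rose, the stress sensor gene Sesn1 (0.71) and the death receptor gene Fas (0.64), and 2 fell, Tnfrsf10b (-0.32) and Bax (-0.20), calls that ended in 7 and 6 of 22 alternatives. Under quantile normalization 5 of these 20 were lower.

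The Mcm5 promoter is shown because it held the most E2F letters among the matched S phase promoters. It lies at chr19:13488563-13488812, plus strand. Capitals mark 3 matches to TTTNNCGC on either strand, the first and second of which overlap.
Mcm5 promoter: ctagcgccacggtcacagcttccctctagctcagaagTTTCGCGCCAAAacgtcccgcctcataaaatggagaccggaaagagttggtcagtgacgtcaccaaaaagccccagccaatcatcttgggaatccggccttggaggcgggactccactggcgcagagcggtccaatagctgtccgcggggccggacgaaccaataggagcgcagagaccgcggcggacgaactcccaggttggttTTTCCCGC
This motif stood in 16 of 31 matched S phase promoters (51.6%), and in 11 of the 24 among them that fell (45.8%). It stood in 8.8% of the promoters of tested genes and in 5.2% of all promoters.

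Genes of the amino acid stress response, a programme controlled by the transcription factor ATF4, were mostly lower, less so among its regulators. Of 47 tested, 36 fell and 2 rose, and the median of -0.49 was the lowest among the lists plotted. All 14 genes of tRNA charging and export fell, the aminoacyl-tRNA synthetase gene Yars (-0.65) among them. Of 21 genes of amino acid synthesis and transport, 17 fell and 0 rose. Cth, which makes cysteine in the last step of transsulfuration, went from 24.1, 25.4 and 24.2 to 7.36, 7.33 and 8.44 FPKM (-1.55 ± 0.12, adjusted p = 1.96e-07). Mthfd2, a mitochondrial folate enzyme, went from 81.8, 79.7 and 81.7 to 46.1, 45.8 and 47.1 FPKM (-0.79). Chac1, which degrades glutathione, stood at 42.7, 39.9 and 41.9 FPKM against 17.03, 17.8 and 18.6 FPKM (-1.18 ± 0.09, adjusted p = 2.12e-07). Trib3 (-1.02), a pseudokinase that ATF4 induces, and Vldlr (-0.76) fell as well. Of 12 regulators 5 fell and 2 rose (median -0.187). The members that rose were the regulators Cebpb (0.68) and Ddit4 (0.38). The cystine transporter gene Slc7a11 also fell (-0.61).

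The Chac1 promoter is shown because Chac1 was the member with the largest fall that held the ATF4 composite letters TGATGNAA. It lies at chr3:126795881-126796130, plus strand, and capitals mark 1 match on the opposite strand.
Chac1 promoter: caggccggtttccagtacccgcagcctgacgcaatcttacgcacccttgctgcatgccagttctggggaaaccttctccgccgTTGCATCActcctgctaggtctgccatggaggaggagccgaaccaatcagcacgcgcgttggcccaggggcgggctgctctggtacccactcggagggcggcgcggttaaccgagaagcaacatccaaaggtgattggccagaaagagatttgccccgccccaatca
The letters stood in 13 of 40 matched promoters of this list (32.5%), 12 of them in the 31 that fell, against 2.1% of the promoters of tested genes and 3.8% of all promoters. Trib3 and Yars held them too, as did 6 further synthetase genes, Aars, Cars, Iars, Mars, Nars and Tars.

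Endoplasmic reticulum folding genes and cholesterol enzymes were lower as well. Of 24 folding genes, 14 fell and 1 rose. Serpinh1, the collagen chaperone, went from 1668, 1656 and 1596 to 1153, 1124 and 1162 FPKM (-0.52 ± 0.06, adjusted p = 1.58e-05). Hspa5 (-0.45), the main chaperone of the compartment, Dnajb9 (-0.48), Hsp90b1 (-0.41) and Pdia4 (-0.37) fell, and P4hb, a subunit of the collagen prolyl hydroxylase, rose (0.23). Of 20 cholesterol synthesis enzymes, 11 fell and 0 rose, among them Fdps (-0.55), Idi1 (-0.55), Acat2 (-0.52) and Msmo1 (-0.51). Of 10 genes of cholesterol control and uptake 3 rose, among them the efflux pump genes Abcg1 (1.22) and Abca1 (0.51).

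Most acute phase and innate defence genes rose. Of 13 acute phase and defence genes, 11 rose and 0 fell, with a median of 1.57. Pla2g2a, a secreted phospholipase that kills bacteria and releases fatty acids, stood at 92.7, 143 and 140.0 FPKM in control and 3865, 3728 and 3178 FPKM in Yap siRNA libraries. That is a 28.7-fold rise of the mean and the largest of any tested gene (4.85 ± 0.15, adjusted p = 8.78e-12). Lcn2, the iron-siderophore binder lipocalin 2, went from 105, 119 and 129.6 to 619, 594 and 575 FPKM (2.33 ± 0.11, adjusted p = 8.97e-10). Slpi, an inhibitor of leukocyte proteases, went from 4.25, 4.70 and 4.81 to 64.00, 66.2 and 55.6 FPKM (3.49 ± 0.11, adjusted p = 1.32e-11). Lbp (2.19), which binds bacterial lipopolysaccharide, the protease trap A2m (1.57) and the copper oxidase gene Cp (1.14) rose as well. The groups did not overlap in any of these genes, which was so for 50% of all tested genes. Hpx, which scavenges heme, rose from 2.88, 3.34 and 3.38 to 18.03, 21.5 and 19.1 FPKM (2.29), and the chitinase-like Chi3l1 from 5.76, 7.99 and 8.44 to 96.8, 85.7 and 87.2 FPKM (3.45 ± 0.13, adjusted p = 1.05e-10).

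Complement genes rose without an exception among those called: 12 of 21 rose and 0 fell. C3, the central component, went from 3.36, 4.69 and 4.17 to 63.9, 58.2 and 56.1 FPKM, 14.6-fold (3.58 ± 0.11, adjusted p = 8.78e-12). Cfb, the protease of the alternative arm, was more abundant and went from 43.00, 67.1 and 56.6 to 358, 354 and 319.6 FPKM (2.63 ± 0.15, adjusted p = 1.01e-08). C6 (2.71), of the membrane attack complex, rose from 0.690, 1.12 and 0.850 to 12.4, 12.5 and 9.17 FPKM. In the classical arm 6 of 10 rose, with the protease gene C1s (1.65) and its inhibitor gene Serping1 (1.47) in front. The membrane regulator Cd55, which dissolves the convertases, rose too (1.23). Enzymes, substrates and inhibitors of the cascade were thus higher side by side.

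Chemokines and cytokines rose in 22 of 34 cases and fell in 0. All 10 tested CXC and CX3C chemokine genes rose, as did 5 of 11 CC chemokine genes and 7 of 13 cytokine and growth factor genes of the list. Of these 10, 8 kept the call in all alternatives. Cxcl2, Cxcl9 and Cxcl14 were under the filter and were not tested. Cxcl6, which attracts neutrophils, went from 2.23, 1.94 and 2.47 to 49.2, 42.1 and 44.1 FPKM, 20.4-fold (3.84 ± 0.16, adjusted p = 2.41e-10). Cxcl16 went from 79.2, 84.9 and 88.5 to 255, 246 and 234 FPKM (1.53), and Ccl7, a monocyte attractant, from 182, 223 and 228 to 575, 573 and 561 FPKM (1.44 ± 0.11, adjusted p = 1.78e-07). Cxcl3 (1.48) and Ccl5 (1.63) rose at lower levels. With a filter of 5 FPKM, which drops the low members, 12 of the genes were called higher. Csf2rb, the shared receptor subunit of interleukin 3 and GM-CSF, rose from 2.01, 1.72 and 1.84 to 19.6, 17.6 and 17.5 FPKM (2.75 ± 0.08, adjusted p = 8.78e-12).

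NF-kappaB is a transcription factor family known to act on many genes of this kind. Its activity was not measured here, and its part in these rises was not tested. Of 19 genes of its module, 18 rose and 0 fell (median 0.62). The 3 tested subunit genes rose, 5 of 6 inhibitor genes rose and all 10 adhesion and other target genes rose. Under median-of-ratios scaling 14 of the 19 were called higher, with 7 of the 10 adhesion and other target genes. When any 1 library was left out, 14 to 18 of the 19 were called higher. Nfkbia, the inhibitor that the factor induces to end its own activity, went from 41.8, 45.4 and 41.2 to 86.2, 89.1 and 92.2 FPKM (1.04 ± 0.07, adjusted p = 5.28e-08). Tnip1 (1.34), a second inhibitor, Birc3 (1.28), the mitochondrial superoxide dismutase gene Sod2 (1.53) and the receptor gene Tlr2 (1.25) rose. Vcam1, to which leukocytes adhere, went from 10.6, 14.00 and 14.2 to 66.1, 63.9 and 65.2 FPKM (2.26 ± 0.12, adjusted p = 7.65e-09).

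The promoters of Cxcl6 and Lcn2 are shown because these strongly raised genes held the NF-kappaB letters GGGA, any 2 bases, TTCC. Cxcl6 lies at chr14:17596418-17596667, minus strand, and its capitals mark 2 overlapping matches, 1 on each strand. Lcn2 lies at chr3:36081781-36082030, minus strand, and its capitals mark 1 match on the opposite strand.
Cxcl6 promoter: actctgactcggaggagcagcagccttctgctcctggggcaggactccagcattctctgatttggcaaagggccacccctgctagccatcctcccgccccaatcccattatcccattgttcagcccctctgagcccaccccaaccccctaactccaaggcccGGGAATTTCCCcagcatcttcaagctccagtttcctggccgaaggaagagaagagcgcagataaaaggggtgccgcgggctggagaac
Lcn2 promoter: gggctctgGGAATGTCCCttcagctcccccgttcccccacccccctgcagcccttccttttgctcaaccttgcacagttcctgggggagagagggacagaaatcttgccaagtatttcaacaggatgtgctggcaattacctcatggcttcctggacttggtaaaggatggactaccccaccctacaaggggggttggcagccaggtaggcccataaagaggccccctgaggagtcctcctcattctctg
The letters stood in 6 of 25 matched chemokine and cytokine promoters (24.0%), all among the 17 that rose, and in 4 of 18 promoters of the NF-kappaB module (22.2%). They stood in 1 of 9 acute phase promoters, in 0 of 13 complement promoters, in 1.4% of the promoters of tested genes and in 1.3% of all promoters. Ccl7, Cxcl1, Cxcl10, Cxcl11 and Il6 were the other chemokine and cytokine genes with a match.

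Interferon-stimulated genes rose by smaller amounts but in large number: 39 of 50 rose and 0 fell (median 0.40). Of 13 sensors and signalling genes 10 rose, and of 37 antiviral effectors 29 rose. Rsad2, the antiviral enzyme viperin, went from 16.4, 19.3 and 20.4 to 41.2, 39.2 and 44.8 FPKM (1.12 ± 0.11, adjusted p = 1.50e-06). The guanylate-binding protein gene Gbp5 went from 39.5, 49.01 and 49.5 to 98.1, 101 and 105 FPKM (1.13), and Ifit3 from 68.2, 84.9 and 91.5 to 149, 154 and 152 FPKM (0.90). Oas2 (1.01) and Oasl (0.89), of a family that senses double-stranded RNA, and Irf7 (0.49), the factor that amplifies the response, rose. Both groups had received siRNA and transfection reagent, but the siRNAs differed between the groups. The part of the siRNAs themselves in these rises was not tested. In class I antigen presentation 12 of 18 genes rose and 0 fell, among them Tapbpl (0.57) and RT1-S3 (0.68); RT1 genes are near-identical copies, so reads may be split between them. None of 5 immunoproteasome genes was called by limma, 1 of them having an unadjusted p under 0.05, and of 3 class II genes RT1-DMb fell (-0.57).

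The Rsad2 promoter is shown as that of an antiviral effector that rose and held the letters of the interferon-stimulated response element, GAAA, any 2 bases, GAAA. It lies at chr6:48788121-48788370, minus strand, and capitals mark the match on the opposite strand.
Rsad2 promoter: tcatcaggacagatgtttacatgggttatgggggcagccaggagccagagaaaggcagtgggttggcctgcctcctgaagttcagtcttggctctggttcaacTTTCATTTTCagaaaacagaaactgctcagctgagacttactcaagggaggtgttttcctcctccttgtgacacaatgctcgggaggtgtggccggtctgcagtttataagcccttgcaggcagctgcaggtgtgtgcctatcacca
The element stood in 24 of 37 matched promoters of the list (64.9%), in 3.0% of the promoters of tested genes and in 3.8% of all promoters. Among the members that rose it stood in 18 of 29 (62.1%).

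Leukocyte markers were measured beside these genes. Of 16 tested, 3 rose (18.8%), a share near the 21.3% of all genes, and 0 fell. Those that rose were Adgre1 (3.55, 3.34 and 3.25 to 7.37, 8.43 and 7.19 FPKM, 0.98), Fcgr2b (0.59) and Mrc1 (0.32), the last a call lost in 7 of 22 alternatives. In a fit of the fibroblast groups alone, 5 rose. The pan-leukocyte gene Ptprc stood at 3.71, 3.67 and 4.14 FPKM against 3.83, 4.74 and 3.85 FPKM (0.08), the macrophage growth factor receptor gene Csf1r at 13.7, 12.2 and 12.1 FPKM against 14.1, 12.9 and 11.4 FPKM (0.01) and Cd68 at 0.17. The groups overlapped for Ptprc and Csf1r, but they did not overlap for 8 of the 16 tested markers. Cd3g was at 0 in all 6 libraries. The sum over 19 leukocyte markers was 335.8 to 364.0 FPKM in control and 363.3 to 419.3 FPKM in Yap siRNA libraries. Its part in the inflammatory rises was not tested.

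**Figure D3:**
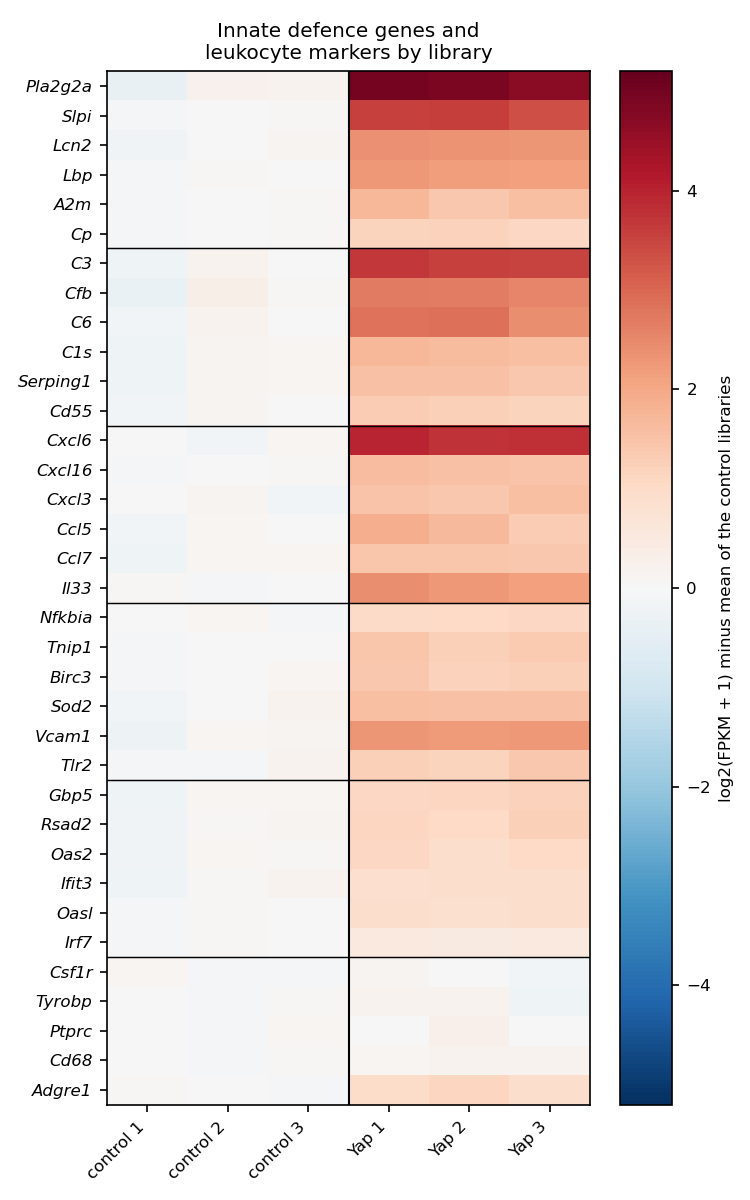
Colour gives log2(FPKM + 1) of a gene in a library minus its mean in the 3 control libraries; columns are the 3 control and 3 Yap siRNA fibroblast libraries, and lines separate acute phase, complement, chemokine and cytokine, NF-kappaB, interferon-stimulated and leukocyte marker genes from top to bottom. The first 5 groups are higher in all 3 Yap siRNA libraries, and of the leukocyte markers shown Adgre1 is higher, with Csf1r, Tyrobp, Ptprc and Cd68 near the control level. The leukocyte markers Fcgr2b and Mrc1, which also rose, are not shown.

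Abundant collagens did not pass the test, while proteoglycans rose. Of 11 collagen chain genes, 4 fell and 1 rose, and none of the 3 most abundant passed: Col1a1 stood at 7057, 7330.2 and 6429.6 FPKM against 6027, 5999.9 and 6283 FPKM (-0.18 ± 0.12, adjusted p = 0.251), Col1a2 at -0.25 and Col3a1 at 0.13. The groups did not overlap for Col1a1, although it was not called. Minor fibrillar chains fell, namely Col5a3 (-0.68) and Col11a1 (-0.64), as did Col8a1 (-0.55). In a fit of the fibroblast groups alone, 5 of the 11 collagen chain genes were lower. Small leucine-rich proteoglycans went the other way, with 6 of 9 proteoglycan genes rising and 0 falling. Decorin, Dcn, which coats collagen fibrils and binds TGF-beta, went from 163, 176 and 191 to 619, 608 and 538 FPKM, 3.32-fold (1.73 ± 0.12, adjusted p = 5.99e-08). Prelp went from 69.4, 74.2 and 66.4 to 209.9, 192 and 213 FPKM (1.54) and lumican, Lum, from 64.8, 62.4 and 71.2 to 138, 137 and 126 FPKM (1.00). Prg4, the lubricating proteoglycan of joints, rose from 1.74, 1.37 and 1.54 to 11.7, 12.3 and 12.4 FPKM (2.37).

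Elastic fibre and crosslinking genes were split, 11 rising and 4 falling of 22. Elastin itself, Eln, fell from 595, 646 and 579 to 319.6, 389.7 and 374 FPKM (-0.75 ± 0.07, adjusted p = 2.11e-06), and so did its assembly factor Fbln5 (-0.53), the crosslinking enzyme gene Loxl2 (-0.33) and the collagen hydroxylase gene P4ha1 (-0.40). Fbln1 (1.34) and Efemp1 (1.30), fibulins of the interstitial matrix, rose. Of 14 matricellular genes 5 rose and 2 fell, with thrombospondin 2, Thbs2, going from 38.5, 40.1 and 37.8 to 143, 125 and 126 FPKM (1.73 ± 0.10, adjusted p = 1.58e-08) while Thbs1 was not called; 3 rose without any 1 of control libraries 1 to 3 or Yap siRNA libraries 1 and 2. Periostin, Postn, a protein of activated fibroblasts, rose from 1284, 1388 and 1482 to 2457, 2509 and 2291 FPKM (0.81). In basement membrane, of 11 genes, Lamc1 (-0.60) and Col4a1 (-0.41) fell (18.2%) and Lama4 (0.28), Lamb2 (0.35) and Col18a1 (0.33) rose (27.3%). Over all genes 10.9% were called lower and 21.3% higher. Metalloproteinase genes rose in 8 of 16 cases, led by Adamts15 (1.45) and Adamts5 (0.77), which cleave proteoglycans, and including the gelatinase gene Mmp2 (0.55); Adamts12 fell (-0.56). Among 10 protease inhibitor and plasminogen genes, Serpine2 rose (0.53) and the activator gene Plau fell (-0.33), and in all 4 rose and 2 fell.

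Fibroblast markers were more often higher than lower. Of 20 fibroblast markers, 11 rose and 1 fell. Pdgfra, a receptor that marks cardiac fibroblasts, went from 27.8, 31.3 and 30.1 to 110.4, 94.9 and 101 FPKM, 3.44-fold (1.75 ± 0.09, adjusted p = 5.96e-09). Mfap5 (1.06), Cd248 (0.84), Dpep1 (0.69), Dpt (0.62) and S100a4 (0.61) rose, Tcf21 (0.17), Ddr2 (-0.17) and Thy1 (-0.06) did not pass, and vimentin, Vim, fell from 2219, 2216 and 2333 to 1510.2, 1574 and 1473 FPKM (-0.57). In a fit of the fibroblast groups alone, 4 of the 20 were lower.

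Of 29 genes of growth factors and the enzyme autotaxin, 8 rose (27.6%) and 4 fell (13.8%), shares near the 21.3% and 10.9% of all genes, and of 20 receptor genes 6 rose and 1, Pdgfrb, fell (5.0%). Igf1 went from 27.9, 27.4 and 30.3 to 90.6, 83.95 and 82.9 FPKM, 3.01-fold (1.56 ± 0.12, adjusted p = 2.33e-07). Enpp2, the enzyme autotaxin that makes lysophosphatidic acid, went from 1.79, 2.29 and 2.46 to 48.6, 41.03 and 39.6 FPKM, 19.8-fold (3.79 ± 0.11, adjusted p = 8.78e-12). The stem cell factor gene Kitlg (1.41), Angpt1 (1.23) and Figf (1.00), the gene of VEGF-D, rose; Nrg1 (-0.54), Hbegf (-0.38) and Pdgfa (-0.32) were among those that fell. Without control library 1 or 3, or without Yap siRNA library 1, only 1 of the 29 fell. Of 6 IGF-binding protein genes 4 rose, Igfbp3, Igfbp4 (0.45), Igfbp6 (0.36) and Igfbp7 (0.24), and 2 rose without control library 1 or 3 or without Yap siRNA library 2.

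BMP and Wnt antagonists were among the genes that rose. Of 11 BMP ligands and antagonists 8 rose and 0 fell, with Bmp2 going from 1.52, 1.99 and 0.950 to 3.78, 3.77 and 3.82 FPKM (0.97 ± 0.14, adjusted p = 1.28e-04) and Grem1 (0.69) and Gdf10 (0.77) rising. Of 9 receptors and targets 2 rose (22.2%), a share near the 21.3% of all genes. Among them Id1, a direct target, went from 27.7, 36.4 and 33.3 to 56.2, 62.3 and 57.2 FPKM (0.84). Wnt antagonists and targets rose in 6 of 13 cases and fell in 0. Sfrp2, a secreted antagonist, went from 16.6, 18.4 and 20.5 to 63.5, 56.97 and 56.3 FPKM (1.62 ± 0.15, adjusted p = 1.04e-06), and Sfrp1 (0.87), Frzb (0.82) and Dkk3 (0.47) rose. Of 15 Wnt ligands and receptors 5 rose and 2 fell, with Fzd1 at 0.80 and Fzd4 at -0.41. Of 19 Hippo pathway genes 4 rose (21.1%) and 3 fell (15.8%), shares near those of all genes, the cadherin gene Fat4 rising (0.76) and Fat1 falling (-0.56). Under quantile normalization 2 of these 19 were higher and 6 lower, and without control library 2 or 3, or without Yap siRNA library 1 or 3, 2 were higher.

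Among stress and immediate early genes, 2 of 8 AP-1 genes rose (25.0%), a share near the 21.3% of all genes, and 0 fell, with Junb at 0.54. Of 18 other immediate early genes 6 rose, among them Klf4 (18.6, 23.8 and 21.03 to 49.2, 46.4 and 46.1 FPKM, 1.13), Nr4a1 (1.28), Spry2 (0.72) and Klf2 (0.74) and 2 fell, among them Spry4 (-0.51). Of 24 NRF2 targets 5 rose (20.8%) and 4 fell (16.7%), again near the shares of all genes: the iron store gene Fth1 (0.31) and heme oxygenase (Hmox1, 0.34) rose, and Me1 (-0.61) and Txnrd1 (-0.41) fell. Of 15 adipogenic genes 6 rose and 3 fell, with Cebpd at 0.77 and Fasn at -0.41. Of 7 skeletogenic genes 1 rose (14.3%), Alpl (1.31), beside 21.3% of all genes.

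Metabolic genes moved modestly. Of 19 fatty acid oxidation enzymes 11 rose and 2 fell, Cpt1a, the gate of mitochondrial entry, going from 9.35, 8.71 and 9.29 to 16.8, 14.7 and 15.7 FPKM (0.72) and Eci1 (0.60) and Etfdh (0.49) rising, while Hadhb fell (-0.31). Of 9 uptake genes and regulators 4 rose, Angptl4, the lipase inhibitor, from 22.8, 23.1 and 26.2 to 65.9, 55.7 and 56.9 FPKM (1.27 ± 0.12, adjusted p = 1.04e-06), and 1 fell. Of 23 glycolysis genes 12 rose and 2 fell: the lactate carrier genes Slc16a1 (0.72) and Slc16a3 (0.46) and Aldoc (0.67) rose, and the abundant Gapdh (-0.28) and Eno1 (-0.29) fell. Of 34 nuclear-encoded oxidative phosphorylation genes 5 fell (14.7%), a share near the 10.9% of all genes, and 0 rose. Among them Cycs stood at -0.39 and Atp5b at -0.29. Without Yap siRNA library 1 the falls numbered 3. None of 39 cytosolic ribosomal protein genes was called in either direction (median -0.061). By limma, 1 of them had an unadjusted p under 0.05, and 2 were called lower under median-of-ratios scaling or in a fit of the fibroblast groups alone.

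**Figure D4:**
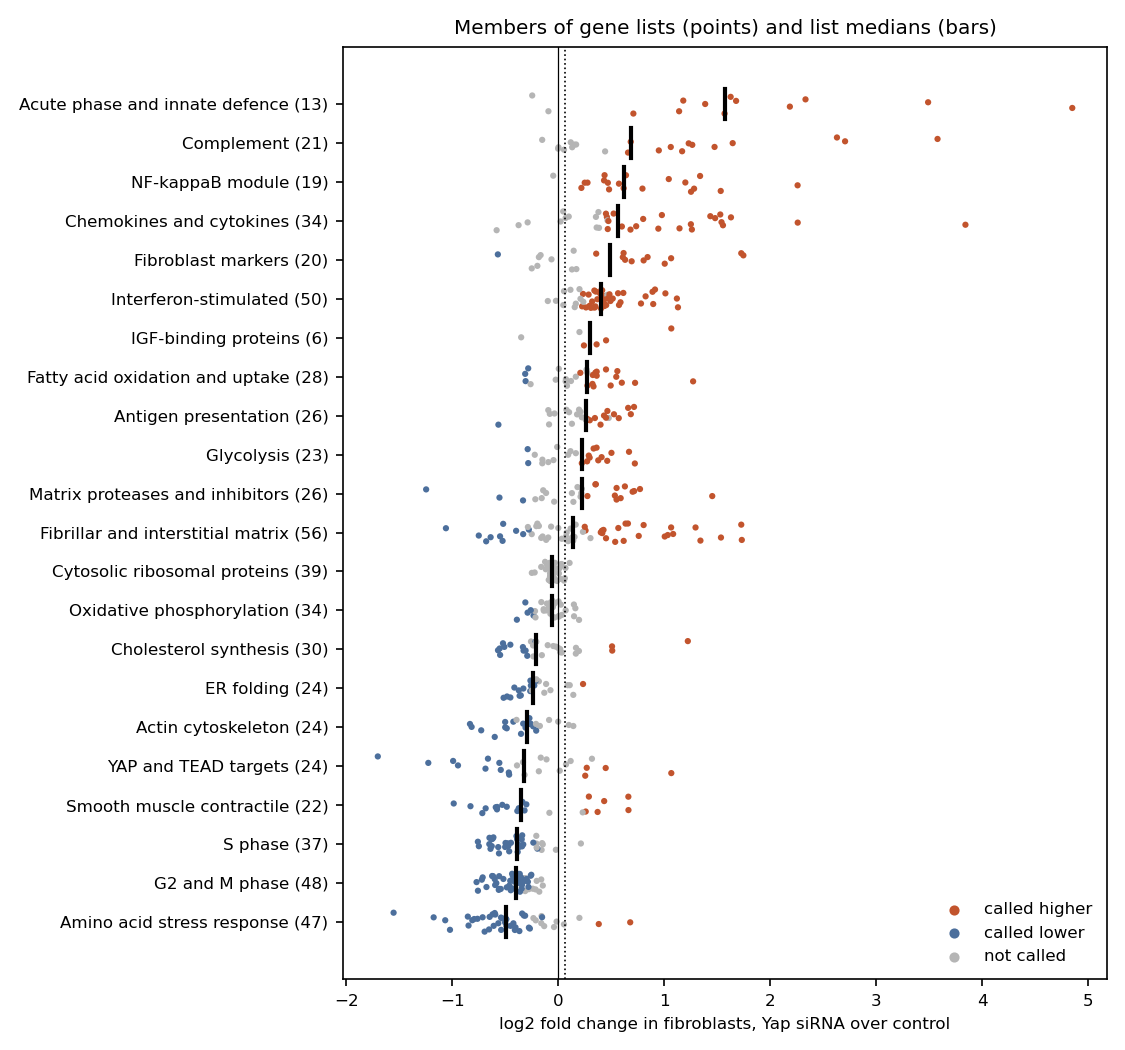
Points are the tested members of 22 gene lists (number in parentheses), placed by log2 fold change in fibroblasts, Yap siRNA over control; orange members were called higher, blue lower and grey not called. Black bars are list medians, the dotted line is the median of all tested genes (0.0657), and the lists run from a median of 1.57 for acute phase genes to -0.49 for the amino acid stress response.

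Markers of other cells of the heart were measured too. Of 21 cardiomyocyte markers, 9 rose and 6 fell; Myh7 (39.01, 38.6 and 35.01 to 17.4, 18.1 and 21.5 FPKM, -0.95), Nppb (-0.69), Actc1 (-0.55) and Tnnt2 (-0.47) fell and Myh6 (34.1, 33.6 and 32.2 to 57.5, 59.2 and 59.6 FPKM, 0.80), Hand2 (0.82), Pln (0.72) and Myl2 (0.49) rose. The sum over 23 was 1392.8 to 1489.3 FPKM in control and 1205.2 to 1337.7 FPKM in Yap siRNA libraries, and its part in the fall of contractile genes was not tested. Of 10 endothelial markers 4 rose and 1 fell, with Tek at 0.61, Pecam1 at 0.57 and Flt1 at -0.91, and the sum over 17 was 185.0 to 211.5 FPKM against 230.5 to 249.3 FPKM. Of 8 epicardial markers 4 rose and 1 fell, with Upk1b (2.31, 3.53 and 4.11 to 9.54, 8.22 and 8.45 FPKM, 1.19), Wt1 (0.60), Tbx18 (0.60) and Aldh1a2 (0.57) higher, and the sum over 10 was 103.2 to 111.6 FPKM against 157.4 to 169.1 FPKM. Of 7 Schwann and neuronal markers 2 rose (28.6%) and 1 fell (14.3%), shares near those of all genes. The sum over 11 was 144.9 to 153.9 FPKM against 148.9 to 158.3 FPKM. Erythroid markers summed to at most 4.4 FPKM in any library, and the 2 tested were not called by limma, 1 of them having an unadjusted p under 0.05.

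The last comparison asked where the fibroblast response differed from that of cardiomyocytes given the same siRNAs. The difference of the log2 fold changes, fibroblasts minus cardiomyocytes, was called in 3836 of 11036 genes (34.8%), 2629 with a higher value in fibroblasts (23.8%) and 1207 with a lower one (10.9%). The comparisons share no control libraries. Of 2015 genes called in both cell types, 1523 had the same sign and 492 opposite signs with a called difference. Another 1531 genes were called in fibroblasts and not in cardiomyocytes, and the difference itself was called in 854 of them.

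Inflammatory genes were prominent among the largest differences. C3 rose in fibroblasts and fell in cardiomyocytes, from 42.6, 44.3 and 39.7 to 25.5, 25.2 and 19.6 FPKM there (difference 4.41 ± 0.15, adjusted p = 1.23e-10). Slpi (4.34), Lcn2 (3.46), Hpx (3.38), Csf2rb (3.35) and Il33 (2.93) showed the same opposition, with cardiomyocyte log2 fold changes of -0.85, -1.12, -1.09, -0.60 and -0.67. Enpp2 went from 1.28, 1.25 and 1.38 to 1.18, 1.08 and 0.930 FPKM in cardiomyocytes (-0.16), and its difference was 3.95. Aqp1, a water channel, rose in fibroblasts from 4.22, 5.38 and 4.81 to 20.1, 21.2 and 23.2 FPKM and fell in cardiomyocytes from 33.9, 38.9 and 37.3 to 18.3, 13.1 and 17.2 FPKM (difference 3.10 ± 0.16, adjusted p = 7.80e-09). Cxcl6 (3.38) and Chi3l1 (3.20) also had called differences. Pla2g2a rose in both, by 4.85 in fibroblasts and 2.54 in cardiomyocytes (difference 2.31).

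As lists, 25 of 34 chemokine and cytokine genes, 40 of 50 interferon-stimulated genes, 15 of 19 NF-kappaB genes and 14 of 21 complement genes had a called difference that was higher in fibroblasts; complement alone had any that was lower, Masp1 and Cd59. In cardiomyocytes 18 chemokine and cytokine genes fell and 2 rose. Interferon-stimulated genes fell there in 27 cases and rose in 1.

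Lower in fibroblasts were the Notch genes: Notch3 fell there and rose in cardiomyocytes from 2.29, 2.09 and 1.78 to 3.23, 2.27 and 4.39 FPKM, low levels that overlapped (difference -2.03 ± 0.22, adjusted p = 8.21e-06), and Heyl stood at 1.65, 1.31 and 1.37 FPKM against 1.57, 1.52 and 1.98 FPKM in cardiomyocytes (difference -1.93 ± 0.15, adjusted p = 4.04e-07). The RNA-editing enzyme gene Adarb1 fell in fibroblasts (-1.13) and rose in cardiomyocytes (0.47). Tpm1 likewise stood at -0.69 and 0.46 (difference -1.14). Acta2 fell in both, and by less in fibroblasts (difference 1.47 ± 0.10, adjusted p = 7.10e-08). Of the 22 smooth muscle genes 9 had a difference higher and 10 a difference lower in fibroblasts. Cell cycle genes fell in both cell types: 34 of 37 S phase genes fell in cardiomyocytes, the median was -0.68 there against -0.39 in fibroblasts, and 13 had a called difference with a higher value in fibroblasts against 2 with a lower one. All 14 genes of tRNA charging and export fell in cardiomyocytes too, and 0 of them had a called difference by limma, with 0 having an unadjusted p under 0.05. Of 24 folding genes 14 had a lower value in fibroblasts and 0 a higher one, Hspa5 standing at -0.45 and 0.43. Oxidative phosphorylation genes differed in the same sense, with 18 of 34 lower and 0 higher in fibroblasts. In cardiomyocytes 15 of these 34 rose and 0 fell, with a median of 0.165 there against -0.062 in fibroblasts. The YAP and TEAD targets had 10 called differences with a higher value in fibroblasts and 2 with a lower one, among 24; Thbs1 stood at 0.07 in fibroblasts and -1.08 in cardiomyocytes (difference 1.15 ± 0.13, adjusted p = 1.40e-05), whereas Ctgf (0.20) and Tgfb2 (-0.05) had no called difference.

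**Figure D5:**
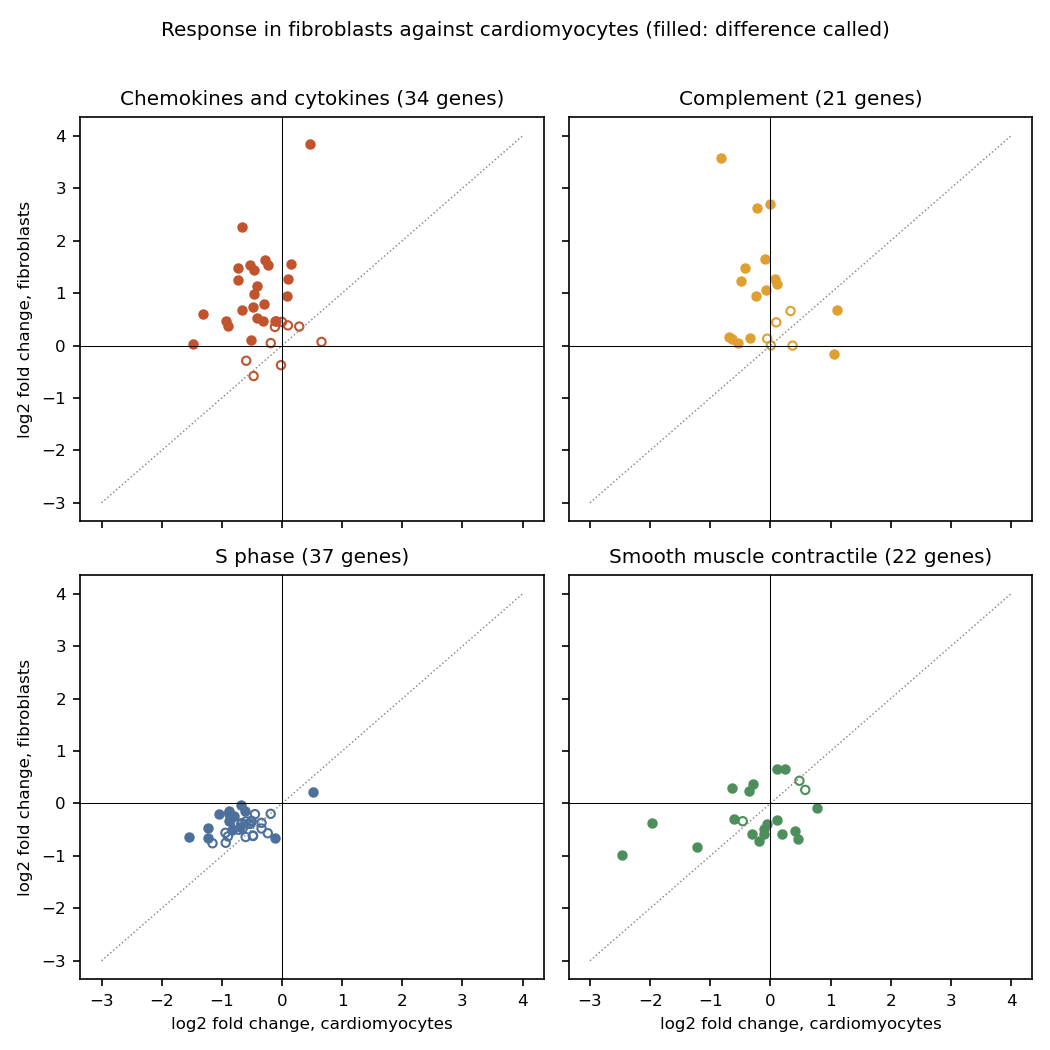
Points are the tested genes of 4 lists, placed by log2 fold change (Yap siRNA over control) in cardiomyocytes (horizontal) and fibroblasts (vertical); filled points have a called difference between the cell types, open points have none, and the dotted diagonal marks equal change. Most chemokine, cytokine and complement genes lie above the diagonal, with Ccl27, Il15, Lif, Masp1, Cfp and Cd59 among those below it; S phase genes lie in the lower left quadrant except Gins2, and smooth muscle genes lie on both sides.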

How the data were processed

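Per the labels, low-input poly-A libraries were sequenced on the BGISEQ-500, and per the submitters' processing notes HISAT, Bowtie2 and rn6 were used, with no versions or roles; for the quantification tool, annotation and strand setting the sources used here give nothing. The authors deposited FPKM values, 1 column per library, with no counts. Of 3455 low values, 31.2% lay within 0.1 of a whole multiple of the gene's lowest value above 0 in the 6 libraries, against 20% with no steps. Depth may differ between libraries, which would blur whole-read steps, so this check cannot tell if they exist. No reads were recovered, and the precision from depth is unknown. FPKM is relative to each library's total, so a few abundant genes can shift the others.

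Of 31 symbols that were blank or turned into dates, 29 were restored by gene ID, and 14516 IDs (99.2%) matched RefSeq. Genes whose mean over the 6 fibroblast libraries reached 0.5 FPKM were fitted as log2(FPKM + 1), with all 4 groups of 3 libraries, in limma 3.58.1 (R 4.3.3, variance trend, two-sided); fold changes of low genes are understated on this scale. All 12 libraries entered under their labels. The steps were tested on simulated data. Promoters came from RefSeq GRCr8 by gene ID (81.3% of tested genes matched). Tables and figures used Python 3.11.15, pandas 2.3.3 and matplotlib 3.10.9.

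Genes named are the YAP and TEAD partners and targets, the 20 largest rises and falls with a group mean of at least 5 FPKM and groups apart, in each list up to 6 called members of the main direction with the smallest p and those called in the other direction, the 10 largest called differences between cell types each way, all cell markers and the 10 most abundant genes; some of them are not reported here. Members and lists were chosen with earlier results of these data known; Srf, the promoters shown and genes named only for a motif or as exceptions were chosen after their values were seen. The 22 alternatives covered pseudocount, filter, scaling, variance trend, replicate block, groups fitted and each of the 12 libraries left out.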

Additional observations from a re-analysis of the deposited data

Results flagged for a closer look

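The log2 change after Yap siRNA differed between fibroblasts and cardiomyocytes by limma's test of the difference in 3836 genes, and the 10 largest differences in each direction among genes with at least 5 FPKM in a fibroblast group are given here as fibroblasts minus cardiomyocytes. Higher in fibroblasts were C3 (4.41), Slpi (4.34), Enpp2 (3.95), Lcn2 (3.46), Cxcl6 (3.38), Hpx (3.38), Csf2rb (3.35), Chi3l1 (3.20), Aqp1 (3.10) and Il33 (2.93). Lower in fibroblasts were Notch3 (-2.03), Heyl (-1.93), Lrrc39 (-1.87), Cygb (-1.87), Atp5i (-1.85), Rwdd2a (-1.67), Crispld2 (-1.66), Adarb1 (-1.59), Rpl38 (-1.44) and Agbl4 (-1.41). Groups of 3 libraries are too small for a test of single outlying libraries.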

How the results depend on the processing

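Under quantile normalization the number of genes called lower rose from 1199 to 1982; the cause was not tested. The total number called kept within 1.5 times of 3546 in all 22 alternatives, from 2682 without Yap siRNA library 1 to 4243 in a fit of the fibroblast groups alone, as did the number called higher, and the number of called differences stayed between 3215 and 4069. Yap1 kept its direction and call in all of them. No named gene reversed its direction with a call. Of 316 called named genes besides Yap1, 20 to 26 lost the call when 1 fibroblast library was left out, 0 to 5 when 1 cardiomyocyte library was, 16 under quantile normalization, 10 under median-of-ratios scaling, 13 with a pseudocount of 0.1 and 6 with 5. Among genes named in the text, calls that ended without at least 1 fibroblast library included those of Asap1, Bax, Cdkn2a, Ddit4, Hbegf, Igfbp6, Igfbp7, Itgb3, Loxl2, Mrc1, Mylk, Nt5e, Nuak2, Pdgfa, Plau, Tnfrsf10b and Tns3. Counts of list members that moved by more than 1.5 times under scaling included YAP and TEAD targets higher (2 against 4, quantile), Hippo genes higher (2 against 4, both scalings), YAP and TEAD partners lower (2 against 1, both scalings), fibroblast markers lower (3 against 1, quantile), amino acid stress regulators lower (8 against 5, median-of-ratios), and glycolysis genes lower (4 against 2) and p53 targets lower (4 against 2), both median-of-ratios. Counts of members higher also moved for BMP ligands and antagonists (5 against 8) and growth factor ligands (4 against 8) with a filter of 5 FPKM, Wnt ligands and receptors (3 against 5) with a pseudocount of 0.1 and endothelial markers (2 against 4) with a pseudocount of 5. With the replicate number as a block, 3452 genes were called against 3546, and 9 of the 316 named genes lost the call. Deviations of same-numbered control and Yap siRNA libraries correlated at 0.012, -0.08 and -0.129, so the numbers were not taken as pairs. No read counts are given, so what depth limits cannot be stated.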
